A study of Mus musculus with 3 samples.

Results

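The 55 genes described here act in mitosis: they encode parts of the kinetochore, the spindle checkpoint, the spindle, the cohesion and condensation machinery and the cytokinesis apparatus, with the kinases and cyclins that drive them. They were taken by gene symbol. Of the 55, 54 had at least 1 probe set with that symbol alone, out of 18193 genes measured. Ccnb1 is not analysed here. The list was chosen with earlier results of these data known. Its shares, given below beside those of all genes, are descriptions and not an independent test. The cells came from the bone of C57BL/6 mice. Collagenase freed endosteal cells from fragments of femur and tibia, cells carrying CD45, CD31 or Ter119 were removed, and the rest were sorted by PDGFRa and Sca-1 into PDGFRa(+) Sca-1(+) cells, PDGFRa(+) Sca-1(-) cells and PDGFRa(-) Sca-1(-) cells. These populations are called double-positive, PDGFRa-only and double-negative below. Each was measured on 1 array, so no difference below has a replicate check, a p-value or a standard deviation over animals. The sources used here do not give the age, sex or number of the mice.

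Mitosis genes are transcribed mainly in the late part of the cell cycle, so their RNA is used as a sign of dividing cells. At entry into mitosis the cyclin-dependent kinase Cdk1 acts with cyclins A and B, condensins compact the chromosomes, and kinetochores built on each centromere attach them to the spindle. The checkpoint holds the cell until every kinetochore is attached; the anaphase-promoting complex then marks cyclin B and securin for destruction, and the cell splits. In bulk RNA, fewer dividing cells and less RNA per dividing cell cannot be told apart.

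The promoter windows of Top2a, Cdca8 and Cdca5 are shown because, among genes with a window in the table, they had the largest drop measured on both arrays in any comparison, taken from 3 different role groups. For Top2a and Cdca8 that was double-positive over double-negative cells, and for Cdca5 PDGFRa-only over double-negative cells. They are also shown because many promoters of mitosis genes are known to carry a cell cycle homology region (CHR) close to the gene start with CCAAT boxes before it. Each window is 300 bases of the RefSeq assembly GRCm38.p6, read 5′ to 3′ on the gene's strand, from 250 bases before the gene start to 50 after it. Capitals mark the CHR letters TTTGAA, the CHR variant TTTAAA and the CCAAT box letters CCAAT, on either strand. Top2a lies at chr11:99024140-99024439 on the minus strand, Cdca8 at chr4:124936868-124937167 on the minus strand and Cdca5 at chr19:6084847-6085146 on the plus strand.
Top2a: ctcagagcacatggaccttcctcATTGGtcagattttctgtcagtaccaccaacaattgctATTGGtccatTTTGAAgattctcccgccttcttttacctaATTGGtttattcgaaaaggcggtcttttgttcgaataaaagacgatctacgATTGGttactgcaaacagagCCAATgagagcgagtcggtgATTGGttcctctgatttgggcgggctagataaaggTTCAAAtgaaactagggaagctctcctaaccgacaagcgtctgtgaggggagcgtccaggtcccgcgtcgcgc
Cdca8: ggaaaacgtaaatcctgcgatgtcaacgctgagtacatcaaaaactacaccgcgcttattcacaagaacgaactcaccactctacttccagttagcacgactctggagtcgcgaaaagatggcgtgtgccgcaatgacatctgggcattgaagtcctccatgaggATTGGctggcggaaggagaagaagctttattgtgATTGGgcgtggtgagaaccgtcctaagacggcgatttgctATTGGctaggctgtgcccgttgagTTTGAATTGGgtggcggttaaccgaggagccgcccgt
Cdca5: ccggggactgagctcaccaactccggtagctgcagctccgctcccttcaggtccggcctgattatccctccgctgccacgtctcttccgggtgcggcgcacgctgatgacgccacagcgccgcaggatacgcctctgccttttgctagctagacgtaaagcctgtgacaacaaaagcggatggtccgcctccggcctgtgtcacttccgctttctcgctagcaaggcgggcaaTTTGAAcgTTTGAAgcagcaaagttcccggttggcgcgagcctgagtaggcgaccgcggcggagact

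Counting bases from 1 at the 5′ end of the window, Cdca5 held a pair of CHR matches, at bases 234 to 239 and 242 to 247, and no CCAAT match. The Cdca8 window held 1 CHR match, at bases 264 to 269, which shared its last base with a CCAAT match on the other strand at bases 269 to 273. Top2a held CHR matches at bases 72 to 77 and, on the other strand, 228 to 233, with CCAAT matches between and before them. Windows were found for 46 of the 55 genes, 50 windows in all. TTTGAA stood in 70.0% of these 50 windows and in 17.9% of all 32851 windows of the mouse table. CCAAT stood in 72.0% of the mitosis gene windows and in 37.4% of all windows, and TTTAAA in 20.0% of the mitosis gene windows and 13.2% of all windows.

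The matches had a place in the window. A CHR match began within the 50 bases from the gene start on in 42.0% of the mitosis gene windows, against 2.25% of all windows, and within the 50 bases before the start in 24.0%, against 2.82%. Between 200 and 250 bases before the start the shares were 4% of the mitosis gene windows and 4.07% of all windows. CCAAT matches began within the 50 bases before the start in 42.0% of the mitosis gene windows, against 9.03% of all windows, and in the 50 bases before those in 42.0% against 12.5%. The mitosis gene windows had a median GC content of 58.7%, against 52.7% for all windows. A match is a run of letters, not a shown binding site.

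**Figure D1:**
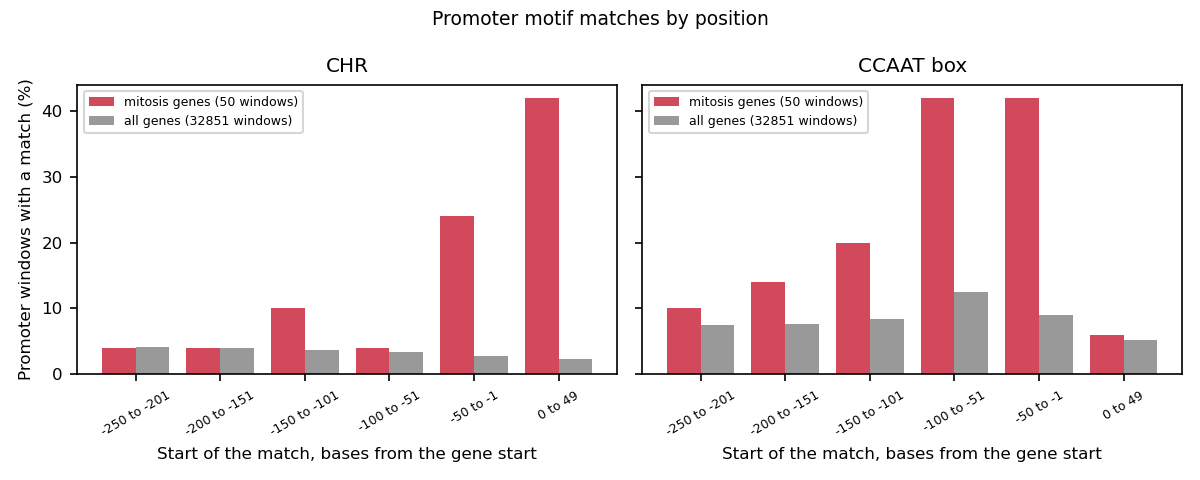
Share of promoter windows (y axis, percent) with a match to the CHR letters (left) or the CCAAT letters (right) that begins in each 50-base step from the gene start (x axis), for 50 windows of mitosis genes (red) and all 32851 windows (grey). CHR matches of the mitosis genes gather at the gene start, 42.0% in the last step against 2.25% of all windows, and CCAAT matches gather before it.

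The values are array signals on a linear scale with no unit, brought to 1 common level per array. A floor at a signal of 93.2, the mean of the 3 array medians, stood in for detection calls. A gene was read by its brightest probe set, counted as lower or higher at 2-fold, and, where it lay under the floor on 1 of 2 arrays, given a bound written as "at least". Different probe sets of 1 gene are the only repeated measurement: over all genes, log2 ratios scattered between them with an SD of 0.371 for PDGFRa-only over double-negative cells, 0.505 for double-positive over double-negative cells and 0.597 for double-positive over PDGFRa-only cells, so that the 2-fold threshold stood at 2.69, 1.98 and 1.68 of these SDs. Among probe sets of the mitosis genes the SDs were 0.360, 0.243 and 0.364, from 9, 8 and 8 genes. This scatter is between probes and not between animals.

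Signals of the mitosis genes were highest in double-negative cells for nearly every member. Of the 54 genes, 27 lay above the floor in double-positive cells, 34 in PDGFRa-only cells and 51 in double-negative cells; over all genes the numbers were nearly level, at 10857, 11041 and 11042. Ttk, a checkpoint kinase, and the motor genes Kif15 and Kif2c were under the floor on every array by every probe set. Of the 25 members above the floor on all 3 arrays, 21 ran in 1 order, lowest in double-positive and highest in double-negative cells. The exceptions were Ccnb2, Smc2 and Mki67, which were lowest in PDGFRa-only cells, and Pttg1, which was lowest in double-negative cells. The share of all genes that ran in the same order was not counted, so the 21 have no background beside them. In 35 members the double-negative signal was at least 2-fold above both others, 68.6% of the 51 above the floor, beside 3.21% of all 12259 genes above the floor on any array. All 51 were above the floor in double-negative cells, and those above it there alone could be highest nowhere else. Of the 25 members above the floor on all 3 arrays, 18 met the same threshold, beside 2.37% of the 9737 genes above the floor on all 3.

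**Figure D2:**
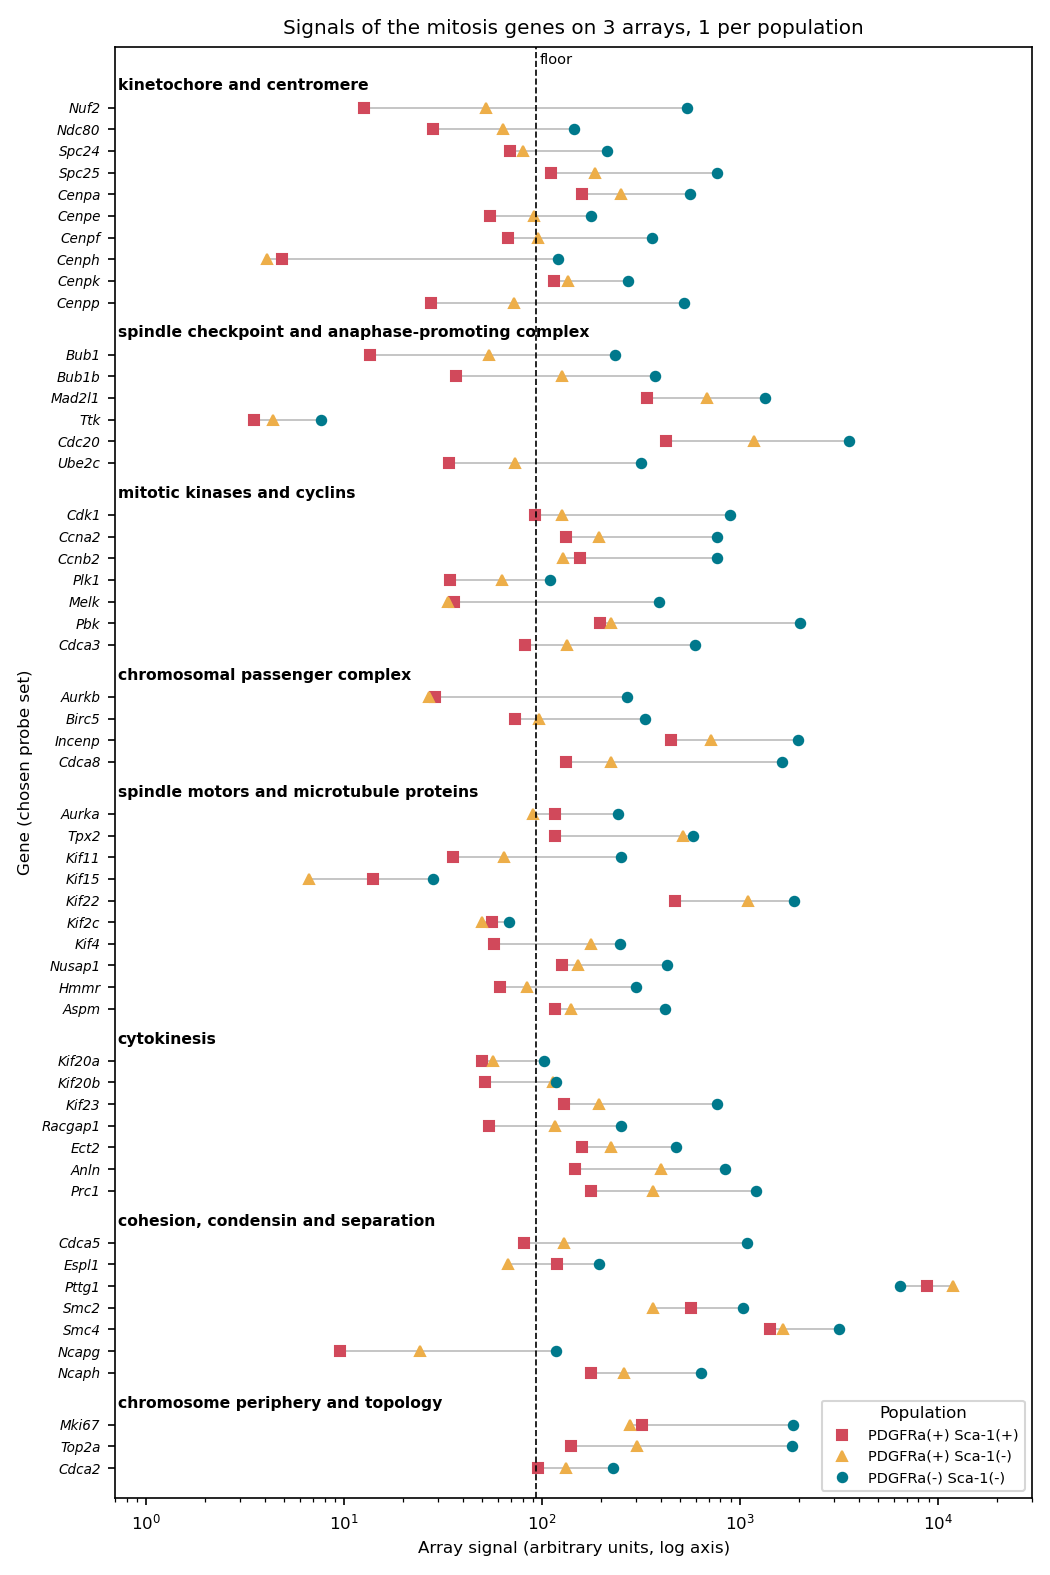
Signal on each array (x axis, log scale, arbitrary units) of the 54 mitosis genes with a probe set, by role, for double-positive cells (red squares), PDGFRa-only cells (yellow triangles) and double-negative cells (teal circles), 1 array each; the dashed line is the floor of 93.2. Double-negative cells lie to the right in nearly every line, with Pttg1 the exception; levels of different genes come from different probes and are not comparable.

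The comparison of PDGFRa-only with double-negative cells asked which transcripts go with PDGFRa among Sca-1(-) cells. Of the 54 mitosis genes, 37 were at least 2-fold lower in PDGFRa-only cells, 0 were higher, 14 were within 2-fold and 3 were under the floor on both arrays. Over all 11693 genes compared, 5.65% were lower and 4.87% higher. The median log2 ratio of the 51 genes compared was -1.46, beside -0.03 for all genes. All 51 lay above the floor in double-negative cells, so the 17 with only a bound could go in no other direction; of the 34 measured on both arrays, 26 were lower. With no floor and 16 added to each signal, so that all 54 genes entered, 39 were lower and 0 higher, beside 7.05% and 6.52% of all genes.

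Against the same double-negative array, double-positive cells had 41 of the 54 mitosis genes at least 2-fold lower, 0 higher, 10 within 2-fold and 3 under the floor on both arrays. The background was 12.2% lower and 14.5% higher over 11884 genes. Their median log2 ratio was -1.84, beside 0.03 for all genes. A bound was all that could be had for 24 of them, and of the 27 measured on both arrays 24 were lower. With no floor, 45 of 54 were lower and 0 higher, beside 13.3% and 12.4% of all genes. These comparisons share the double-negative array and are not separate evidence of its level.

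Between the PDGFRa(+) arrays the difference was smaller. Of the 54 genes, 7 were at least 2-fold lower in double-positive than in PDGFRa-only cells, 0 were higher, 29 were within 2-fold and 18 were under the floor on both. The 7 were Mad2l1, Cdc20, Tpx2, Kif22, Anln, Prc1 and Top2a. They make 19.4% of the 36 genes compared, beside 11.4% lower and 15.0% higher over all 11885 genes. The median log2 ratio was -0.47 for the mitosis genes and 0.07 for all genes. With no floor, 10 of 54 were lower and 0 higher, beside 12.8% and 12.7% of all genes.

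**Figure D3:**
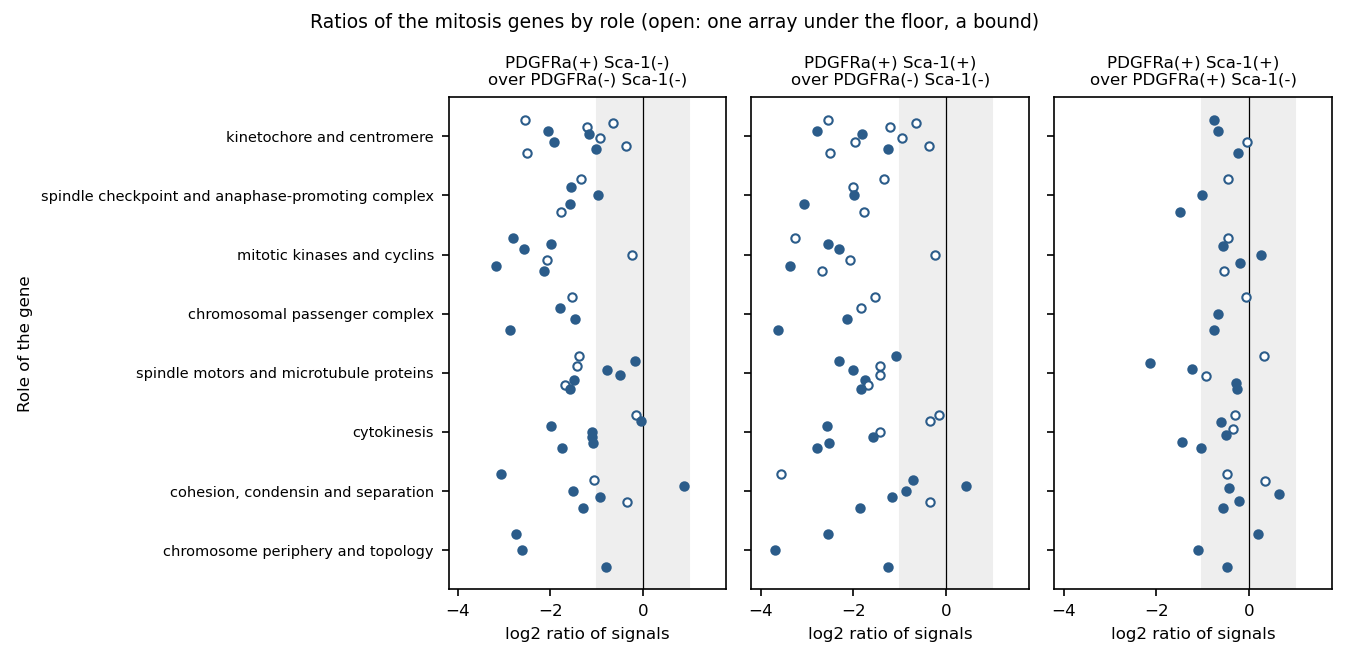
Log2 ratios of signals (x axis) of the mitosis genes by role (y axis) in each comparison, 1 array per population; filled points were measured on both arrays, open points are bounds, and the grey band is within 2-fold. Most points lie left of the band in both comparisons with double-negative cells, while in double-positive over PDGFRa-only cells 29 of 36 lie inside it.

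Kinetochore and centromere genes came first among the roles. The kinetochore links the centromere to the spindle; Ndc80, Nuf2, Spc24 and Spc25 are the 4 subunits of the complex that grips microtubules, Cenpa is the histone H3 variant that marks centromeres, and Cenph, Cenpk and Cenpp belong to the inner network that binds it. In each comparison with double-negative cells 7 of 10 were lower and 3 within 2-fold. Over all genes, 5.65% were lower in PDGFRa-only and 12.2% in double-positive cells. These shares are the background for the counts of every role below. The median log2 ratio was -1.18 in PDGFRa-only cells and -1.53 in double-positive cells.

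Spc25 had a signal of 111.0 in double-positive, 185.3 in PDGFRa-only and 764.9 in double-negative cells. That is 6.89-fold lower in double-positive and 4.13-fold lower in PDGFRa-only cells than in double-negative cells. Nuf2 had 12.6 in double-positive, 52.4 in PDGFRa-only and 543.5 in double-negative cells, so only the last lay above the floor and the ratio was at least 5.83-fold against either PDGFRa(+) population. The other subunits of that complex went the same way at lower signals: Spc24 had 69.3 in double-positive, 80.2 in PDGFRa-only and 213.6 in double-negative cells. Ndc80 had 28.4 in double-positive, 63.6 in PDGFRa-only and 146.0 in double-negative cells and was at least 1.57-fold lower in both PDGFRa(+) populations, a bound within the threshold.

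Cenpa had 159.0 in double-positive, 250.7 in PDGFRa-only and 561.8 in double-negative cells, which made it 3.53-fold lower in double-positive and 2.24-fold lower in PDGFRa-only cells. Cenpp had 27.7 in double-positive, 72.2 in PDGFRa-only and 526.0 in double-negative cells, at least 5.65-fold lower in both, but its 3 probe sets gave bounds between log2 ratios of -2.50 and -0.18. The large kinetochore protein gene Cenpf had 67.9 in double-positive, 95.9 in PDGFRa-only and 362.9 in double-negative cells. Cenpk was just past the threshold in PDGFRa-only cells, 2.02-fold lower. Bounds within the threshold were all that could be had for the kinetochore motor gene Cenpe, at least 1.92-fold lower in both PDGFRa(+) populations, and for Cenph, which had 4.9 in double-positive, 4.1 in PDGFRa-only and 120.2 in double-negative cells and was at least 1.29-fold lower in both.

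Checkpoint and anaphase-promoting complex genes were lower in PDGFRa-only cells for 4 of 6 members, with 1 within 2-fold and Ttk under the floor. In double-positive cells 5 of 6 were lower. Cdc20, the protein that turns on the anaphase-promoting complex once the checkpoint is satisfied, had 426.2 in double-positive, 1188 in PDGFRa-only and 3567 in double-negative cells. It was 8.37-fold lower in double-positive and 3.0-fold lower in PDGFRa-only cells than in double-negative cells. A second Cdc20 probe set measured on all arrays gave a log2 ratio to double-negative cells of -2.52 in double-positive and -1.39 in PDGFRa-only cells, and the remaining one, under the floor in both PDGFRa(+) populations, gave a bound of -0.63.

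Mad2l1, the checkpoint protein that binds Cdc20, had 340.0 in double-positive, 687.8 in PDGFRa-only and 1339 in double-negative cells. Its ratio to double-negative cells was 3.94-fold lower in double-positive cells and 1.95-fold lower, just within the threshold, in PDGFRa-only cells. The checkpoint kinase gene Bub1 had 13.6 in double-positive, 54.1 in PDGFRa-only and 233.7 in double-negative cells, at least 2.51-fold lower in both PDGFRa(+) populations; its other probe set gave a bound at a log2 ratio of -0.0022. Its relative Bub1b had 37.1 in double-positive, 126.3 in PDGFRa-only and 372.1 in double-negative cells. For PDGFRa-only over double-negative cells the log2 ratio was -1.56 by this probe set, -0.73 by another and, with the double-negative array under the floor, at least 0.10 by the last. The ubiquitin-conjugating enzyme gene Ube2c, which works with the anaphase-promoting complex, had 34.1 in double-positive, 73.3 in PDGFRa-only and 316.5 in double-negative cells.

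Mitotic kinases and cyclins were lower for 6 of the 7 genes measured, in PDGFRa-only and in double-positive cells alike. Pbk, a mitotic kinase, had 197.9 in double-positive, 225.1 in PDGFRa-only and 2029 in double-negative cells. That made it 10.3-fold lower in double-positive and 9.01-fold lower in PDGFRa-only cells than in double-negative cells. Cdk1 had 92.5, just under the floor, in double-positive cells, 127.0 in PDGFRa-only cells and 892.3 in double-negative cells, so that it was at least 9.58-fold lower in double-positive and 7.02-fold lower in PDGFRa-only cells. The PDGFRa(+) populations were close to each other in both genes.

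The cyclins were lower too. Ccna2, the A-type cyclin of S phase and early mitosis, had 132.3 in double-positive, 194.2 in PDGFRa-only and 769.4 in double-negative cells. The B-type cyclin gene Ccnb2 had 155.7 in double-positive, 128.8 in PDGFRa-only and 769.6 in double-negative cells, 4.94-fold lower in double-positive and 5.97-fold lower in PDGFRa-only cells. Cdca3, which promotes entry into mitosis, had 82.7 in double-positive, 134.8 in PDGFRa-only and 597.2 in double-negative cells. Melk, a kinase of proliferating cells, was at least 4.19-fold lower in both PDGFRa(+) populations. Plk1, the polo-like kinase of spindle and centrosome, was the exception by size: it had 34.6 in double-positive, 62.9 in PDGFRa-only and 110.3 in double-negative cells, near the floor on the last, and its bound of at least 1.18-fold lower lies within the threshold.

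All 4 genes of the chromosomal passenger complex, which corrects attachments and later directs cytokinesis, were lower in both PDGFRa(+) populations than in double-negative cells. Cdca8, which encodes borealin, had 133.0 in double-positive, 224.1 in PDGFRa-only and 1640 in double-negative cells. It was 12.3-fold lower in double-positive and 7.32-fold lower in PDGFRa-only cells. A second probe set gave log2 ratios of -3.19 in double-positive and -3.13 in PDGFRa-only cells, while the dimmest gave a bound of -0.49 in both. Survivin (Birc5) had 73.1 in double-positive, 96.6 in PDGFRa-only and 334.1 in double-negative cells. The inner centromere protein gene Incenp had 448.2 in double-positive, 713.3 in PDGFRa-only and 1963 in double-negative cells. Aurkb, the kinase of the complex, had 28.8 in double-positive, 27.1 in PDGFRa-only and 268.2 in double-negative cells, so it was at least 2.88-fold lower in both.

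Among spindle motors and microtubule proteins, 8 of 10 genes were lower in double-positive than in double-negative cells, beside 12.2% of all genes, and Kif15 and Kif2c were under the floor. In PDGFRa-only cells 5 of 10 were lower and 3 within 2-fold, beside 5.65% of all genes lower; the difference between these counts was not tested. Tpx2, which activates Aurka and starts microtubules near chromosomes, had 117.3 in double-positive, 518.1 in PDGFRa-only and 582.8 in double-negative cells. Its ratio was 4.97-fold lower for double-positive over double-negative cells and 1.12-fold lower for PDGFRa-only over double-negative cells. The 4 Tpx2 probe sets ranged from a log2 ratio of -1.18 to -0.17 in PDGFRa-only cells, so its call there depends on the probe set, and from -2.80 to -0.60 in double-positive cells.

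Kif22, a motor that binds chromosome arms, had 471.0 in double-positive, 1106 in PDGFRa-only and 1893 in double-negative cells by its chosen probe set. Its other probe sets were under the floor on every array. Kif4, a chromosome-bound motor of the central spindle, had 57.5 in double-positive, 177.1 in PDGFRa-only and 247.8 in double-negative cells. Against double-negative cells, both genes were past the threshold in double-positive cells, 4.02-fold lower for Kif22 and at least 2.66-fold for Kif4, and within it in PDGFRa-only cells, 1.71-fold lower for Kif22 and 1.4-fold for Kif4. By its chosen probe set Kif22 was also 2.35-fold lower in double-positive than in PDGFRa-only cells.

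Kif11, the motor that pushes spindle poles apart, had 35.6 in double-positive, 64.2 in PDGFRa-only and 250.8 in double-negative cells. The spindle pole gene Aspm had 117.4 in double-positive, 140.6 in PDGFRa-only and 419.6 in double-negative cells, 3.57-fold lower in double-positive and 2.98-fold lower in PDGFRa-only cells. The dimmest Aspm probe set that could be compared gave a bound of -0.12 in log2 ratio in both. Aurka, the centrosome kinase, had 116.4 in double-positive, 90.4 in PDGFRa-only and 244.0 in double-negative cells; it was 2.1-fold lower in double-positive and at least 2.62-fold lower in PDGFRa-only cells. The microtubule-binding genes Nusap1 and Hmmr were also lower in both PDGFRa(+) populations; in double-positive cells Nusap1 was 3.38-fold and Hmmr at least 3.22-fold lower.

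Cytokinesis genes were lower for 5 of 7 members in each comparison with double-negative cells. Prc1, which bundles the microtubules of the central spindle, had 177.1 in double-positive, 364.0 in PDGFRa-only and 1213 in double-negative cells, 6.85-fold lower in double-positive and 3.33-fold lower in PDGFRa-only cells. Kif23, a motor subunit of centralspindlin, had 128.9 in double-positive, 195.1 in PDGFRa-only and 769.5 in double-negative cells, 5.97-fold lower in double-positive and 3.94-fold lower in PDGFRa-only cells. Racgap1, the other subunit of centralspindlin, was at least 2.7-fold lower in double-positive and 2.14-fold lower in PDGFRa-only cells. Both subunits thus lay on the same side of the threshold.

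Anln, which encodes anillin of the contractile ring, had 148.1 in double-positive, 402.2 in PDGFRa-only and 846.7 in double-negative cells. It was 5.72-fold lower in double-positive and 2.11-fold lower in PDGFRa-only cells than in double-negative cells, and 2.72-fold lower in double-positive than in PDGFRa-only cells. Ect2, which acts at the cleavage furrow, had 160.2 in double-positive, 223.6 in PDGFRa-only and 478.6 in double-negative cells. The motor genes Kif20a and Kif20b were within 2-fold in all comparisons made: Kif20a had 49.7 in double-positive, 56.9 in PDGFRa-only and 103.1 in double-negative cells, and Kif20b had 51.6 in double-positive, 114.0 in PDGFRa-only and 117.8 in double-negative cells. Both lay close to the floor.

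Cohesion, condensin and separation genes were lower for 3 of 7 members in double-positive cells and 4 of 7 in PDGFRa-only cells. They were the only role group with a member whose ratio to double-negative cells was above 1. Cdca5, which encodes sororin, the guard of sister cohesion, had 81.5 in double-positive, 129.6 in PDGFRa-only and 1092 in double-negative cells. It was at least 11.7-fold lower in double-positive and 8.42-fold lower in PDGFRa-only cells than in double-negative cells. Its promoter window, printed above, holds the pair of CHR matches.

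Pttg1 encodes securin, which holds separase inactive until anaphase. It had 8812 in double-positive, 11928 in PDGFRa-only and 6463 in double-negative cells, so that double-positive cells were 1.36-fold and PDGFRa-only cells 1.85-fold above double-negative cells, both within the threshold. Its other probe sets were also above double-negative cells, at log2 ratios of 0.80 and 0.17 in double-positive and 0.57 and 0.82 in PDGFRa-only cells. The brightest probe set carries a suffix, _s, that marks probes shared between transcripts. The chosen probe sets of Pbk, Cdca8, Prc1 and Bub1b carry the same suffix, and those of Cdc20, Incenp, Kif22, Ncaph and Aurkb carry the suffix _x. Of the 124 probe sets of the mitosis genes, 47 carry an _s, _x or _a suffix. Espl1, which encodes separase, had 119.5 in double-positive, 67.2 in PDGFRa-only and 193.8 in double-negative cells.

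Condensin genes were divided. Smc2, a core ATPase of condensin, had 570.2 in double-positive, 364.7 in PDGFRa-only and 1036 in double-negative cells, 1.82-fold lower in double-positive and 2.84-fold lower in PDGFRa-only cells. Over the 3 Smc2 probe sets compared, the log2 ratio in PDGFRa-only cells ran between -1.51 and -0.50, and its others were under the floor on every array. Its partner Smc4 had 1432 in double-positive, 1665 in PDGFRa-only and 3182 in double-negative cells, 2.22-fold lower in double-positive and 1.91-fold lower in PDGFRa-only cells. Each core subunit was thus past the threshold in only 1 of the PDGFRa(+) populations by the chosen probe set. The other Smc4 probe sets gave 2.88-fold and at least 5.26-fold lower in double-positive cells. Ncaph and Ncapg encode further subunits of condensin I. Ncaph had 176.7 in double-positive, 259.5 in PDGFRa-only and 636.7 in double-negative cells, 3.6-fold lower in double-positive and 2.45-fold lower in PDGFRa-only cells. Ncapg had 9.6 in double-positive, 24.4 in PDGFRa-only and 118.3 in double-negative cells and was at least 1.27-fold lower in both PDGFRa(+) populations.

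The remaining genes act on the chromosome body. Mki67 encodes Ki-67, the coat protein of mitotic chromosomes used as a proliferation marker, and had 319.5 in double-positive, 278.1 in PDGFRa-only and 1859 in double-negative cells. It was 5.82-fold lower in double-positive and 6.68-fold lower in PDGFRa-only cells than in double-negative cells. Top2a, the topoisomerase that untangles sister chromatids, had 141.3 in double-positive, 301.8 in PDGFRa-only and 1838 in double-negative cells, 13.0-fold lower in double-positive and 6.09-fold lower in PDGFRa-only cells. Cdca2, which recruits a phosphatase to chromatin at mitotic exit, had 96.1 in double-positive, 132.5 in PDGFRa-only and 229.2 in double-negative cells, 2.39-fold lower in double-positive and 1.73-fold lower in PDGFRa-only cells; another probe set gave a bound of -1.25 in log2 ratio in both.

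Probe sets of 1 gene did not always give the same call. Of 20 mitosis genes with several probe sets compared for PDGFRa-only over double-negative cells, 11 had all on the same side of the threshold and 9 did not; for double-positive over double-negative cells 14 of 20 did and 6 did not. In no gene did probe sets fall past the threshold in opposite directions. For double-positive over PDGFRa-only cells 7 of 9 had 1 call and 2 did not, Prc1, at log2 ratios of -1.04 to -0.62, and Smc4, at -1.75 to -0.22. Of the 124 probe sets of the 54 genes, 36 were above the floor in double-positive, 47 in PDGFRa-only and 80 in double-negative cells.

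**Figure D4:**
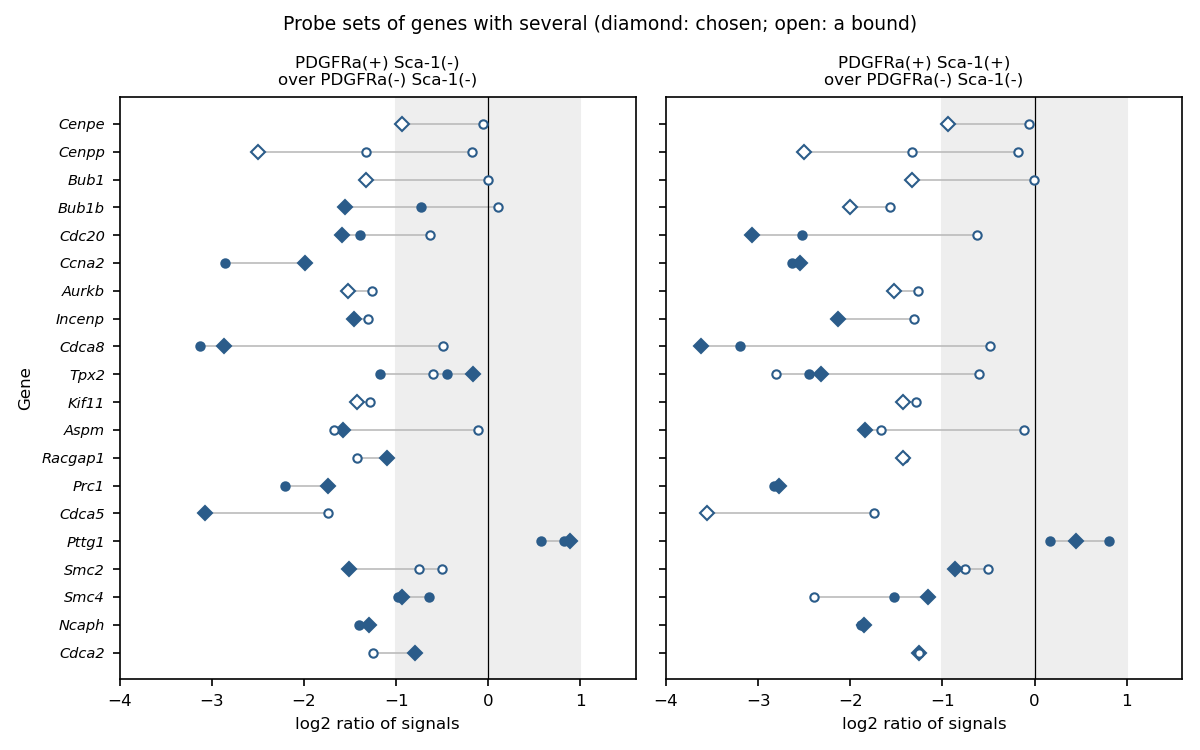
Log2 ratios (x axis) of every compared probe set of the 20 mitosis genes with several, for PDGFRa-only (left) and double-positive (right) over double-negative cells; diamonds are the chosen probe set, open symbols are bounds, and the grey band is within 2-fold. Only Pttg1 has every probe set to the right of 0, and 9 genes on the left and 6 on the right have probe sets both inside and outside the band.

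Beyond these 55, other genes of mitosis had smaller ratios. A list of 92 further genes with a probe set holds regulators used outside mitosis as well. Whether such regulators account for the smaller ratios was not tested. Of the 92 genes, 17 were at least 2-fold lower in PDGFRa-only than in double-negative cells. That is 22.4% of the 76 compared, beside 5.65% of all genes. Another 59 were within 2-fold, 0 were higher and 16 were under the floor on both arrays, with a median log2 ratio of -0.44. In double-positive over double-negative cells 24 were lower and 0 higher, with a median of -0.48. The 24 make 30.8% of the 78 compared, beside 12.2% of all genes. In double-positive over PDGFRa-only cells 7 of the 65 compared were lower and 4 higher, with a median of -0.09. That is 10.8% lower and 6.15% higher, near or below the 11.4% and 15.0% of all genes. Shcbp1, a midbody protein, had 68.9 in double-positive, 118.7 in PDGFRa-only and 580.7 in double-negative cells, and the microtubule destabiliser Stmn1 had 1552 in double-positive, 1611 in PDGFRa-only and 6698 in double-negative cells. Kntc1, a checkpoint protein of the kinetochore, was at least 3.99-fold lower in both PDGFRa(+) populations, and Iqgap3 was 2.47-fold lower in PDGFRa-only and at least 5.38-fold lower in double-positive cells.

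Other genes of that list were level, or lower in double-positive cells alone. Anapc5, a subunit of the anaphase-promoting complex, had 10534 in double-positive, 10555 in PDGFRa-only and 10511 in double-negative cells. Pmf1, a kinetochore subunit with a role in polyamine control, had 164.8 in double-positive, 1117 in PDGFRa-only and 1012 in double-negative cells, 6.78-fold lower in double-positive than in PDGFRa-only cells. Pkmyt1, the kinase that holds Cdk1 inactive, and the chromatin protein gene Hmgb2 were likewise lower in double-positive than in PDGFRa-only cells, by 3.53-fold and 3.39-fold. The 4 higher in double-positive than in PDGFRa-only cells were Smc1a, Anapc1, H2az1 and Cdc25b, named after their values were seen.

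DNA replication genes are active earlier in the cell cycle. Of the 33 with a probe set, 32 were compared with double-negative cells, and Tyms was under the floor on every array. In PDGFRa-only cells 18 of the 32 were lower and 0 higher, beside 5.65% and 4.87% of all genes. In double-positive cells 16 of the 32 were lower and 0 higher, beside 12.2% and 14.5% of all genes. The median log2 ratios were -1.16 in PDGFRa-only and -0.997 in double-positive cells. Mcm5, a subunit of the replicative helicase, had 550.6 in double-positive, 303.7 in PDGFRa-only and 1965 in double-negative cells, and Rrm2, a subunit of ribonucleotide reductase, had 837.3 in double-positive, 722.4 in PDGFRa-only and 3556 in double-negative cells. In double-positive over PDGFRa-only cells 2 of the 29 compared were lower and 4 higher with a median of 0.33. That is 6.9% lower and 13.8% higher, below the 11.4% and 15.0% of all genes. The origin licensing gene Cdc6 was at least 3.24-fold higher and the helicase subunit gene Mcm6 2.97-fold lower. Whether these lists differ was not tested.

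**Figure D5:**
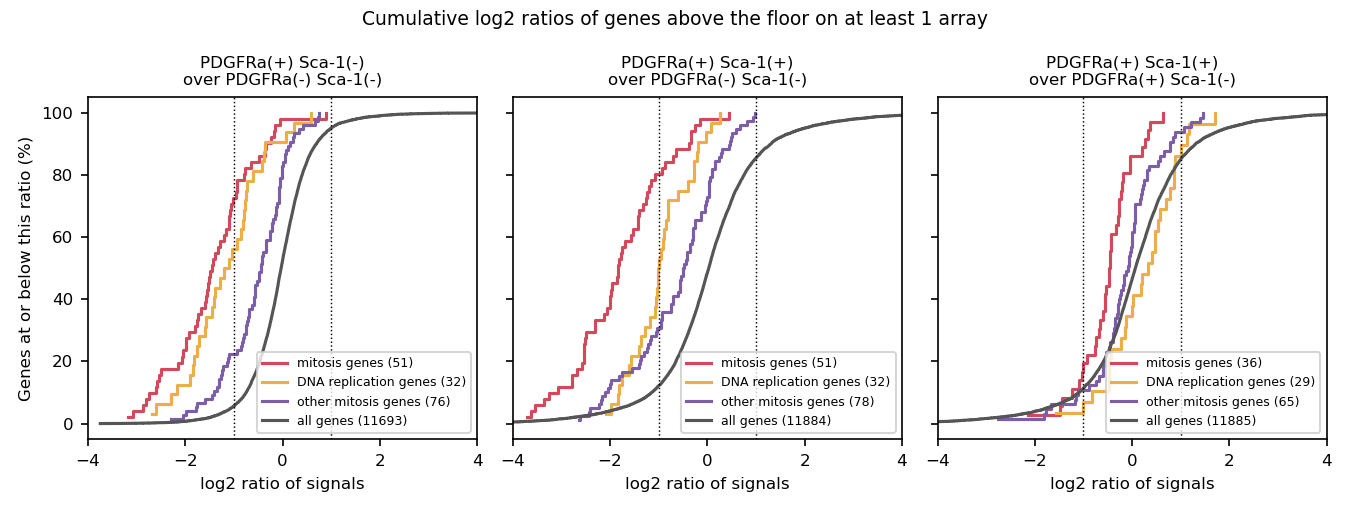
Cumulative share (y axis, percent) of genes at or below each log2 ratio (x axis) in each comparison, for the mitosis genes (red), DNA replication genes (yellow), other mitosis genes (purple) and all genes compared (grey), with dotted lines at 2-fold. The mitosis curve lies left of the others over most of its length in both comparisons with double-negative cells, with a median of -1.46 and -1.84 against -0.03 and 0.03 for all genes, and nearer to them in double-positive over PDGFRa-only cells.

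Features of the arrays and of other cell types differed alongside. Erythroid precursors divide rapidly in marrow, and genes of the erythroid list had summed signals of 1737 in double-positive, 2710 in PDGFRa-only and 8092 in double-negative cells over 12 genes, though the sort removed Ter119+ cells. Tfrc, the transferrin receptor that dividing cells of many types also use, gave 1063 of this in double-positive, 1752 in PDGFRa-only and 6574 in double-negative cells. The other 11 summed to 674 in double-positive, 957 in PDGFRa-only and 1517 in double-negative cells. Against double-negative cells, 4 of 7 erythroid genes compared were lower in double-positive and 3 of 8 in PDGFRa-only cells, beside 12.2% and 5.65% of all genes. By sign alone, 6 were below and 1 above double-negative cells in double-positive cells, and 6 below and 2 above in PDGFRa-only cells. Hemgn had 53.8 in double-positive, 138.4 in PDGFRa-only and 359.9 in double-negative cells, while Alas2, Rhag, Epb42 and Tspo2 were under the floor on all arrays. Add2 had 175.0 in double-positive, 88.5 in PDGFRa-only and 113.8 in double-negative cells. Slc4a1 had 36.0 in double-positive, 111.7 in PDGFRa-only and 53.0 in double-negative cells, and Epor had 87.4, 151.5 and 144.4 in the same order. The part of erythroid cells in the mitosis signals was not tested. Neutrophil precursor genes ran the other way, with sums of 3417 in double-positive, 3426 in PDGFRa-only and 679 in double-negative cells. Of 7 general blood cell genes, 5 were under the floor on every array, among them Ptprc, which encodes CD45.

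Chondrocyte markers had sums of 40361 in double-positive, 202110 in PDGFRa-only and 188458 in double-negative cells. Between the Sca-1(-) arrays 8 of these 9 genes were within 2-fold, near the share of all genes, 10463 of 11693. The exception was Matn1, a cartilage matrix protein, which had 114.6 in double-positive, 18704 in PDGFRa-only and 2331 in double-negative cells. Some of the level genes lay near the top of the range. Col9a1 had 35155 in PDGFRa-only and 35539 in double-negative cells, where the highest array signals were 38540 and 40707. Sox9, level far below these, had 6521 and 6285 in the same order. Whether the brightest signals could show a difference was not tested. Osteoblast and osteocyte markers summed to 18847 in double-positive, 120482 in PDGFRa-only and 43066 in double-negative cells. The signal ratio of the 3′ to the 5′ control probe sets of actin was 4.65 in double-positive, 2.63 in PDGFRa-only and 2.99 in double-negative cells, so the double-positive RNA favoured the 3′ end most; its part in the lower double-positive signals was not tested. Between the Sca-1(-) arrays this ratio was close.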

How the data were processed

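Deposited values are probe set signals, array intensities on a linear scale, made by the authors with MAS5 per the submitters' processing notes; the sources used here give no version, detection calls or filters. RNA was amplified and labelled with a two-cycle assay, per the labels' protocols. In the file, the 2% trimmed mean was 500 on each of 3 arrays.

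Here, 64 control probe sets were set aside, arrays were rescaled to 1 trimmed mean over the other 45037, signals under the floor of 93.2 were raised to it, and log2 was taken. Symbols came from the platform annotation (34945 probe sets with 1 symbol, 932 with several, 9160 with none); 0 were changed by the RefSeq table of GRCm38.p6. Each of 18193 genes was read by the brightest of its probe sets over the arrays. With 1 array per population no test was possible, and the number of arrays limits the precision. The counting was tested on simulated signals with known changes, all larger than the threshold and in genes well above the floor on every array. That test does not cover changes close to 2-fold or changes in genes near the floor. Promoters are RefSeq windows, searched on both strands. Per role, at least the 3 genes with the largest and the 1 with the smallest ratio are given in full, with any whose probe sets disagree in call; the other lists give up to 3 with the largest ratios and 1 with the smallest. The genes and lists were chosen with earlier results of these data known. Alternatives were other scalings, floors, probe set rules and folds. Python 3.11.15, pandas 2.3.3, NumPy 2.4.6, SciPy 1.17.1 and Matplotlib 3.10.9 were used.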

Additional observations from a re-analysis of the deposited data

How the results depend on the processing

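In every scaling, floor and probe set rule tried, the median log2 ratio of the mitosis genes stayed below 0 in all 3 comparisons, and 0 genes were higher at 2-fold. The number lower in PDGFRa-only against double-negative cells, 37, was 20 with the floor at the 67th percentile, 20 with the mean and 24 with the median over probe sets. It was 23 without suffixed probe sets and 20 at 3-fold. In the same order, 36, 51, 51, 34 and 51 mitosis genes were compared. Over all genes 4.44%, 3.48%, 3.99%, 5.98% and 1.62% were lower. The number in double-positive against double-negative cells, 41, was 23, 26 and 27 with the 67th percentile floor, the mean over probe sets and no suffixed probe sets. There 36, 51 and 34 mitosis genes were compared, and 10.7%, 9.36% and 12.4% of all genes were lower. That in double-positive against PDGFRa-only cells, 7, was 4 with a common median, and 11 and 4 with floors at the 33rd and 67th percentiles. It was 2 and 3 with the mean and median over probe sets, 4 without suffixed probe sets, 13 at 1.5-fold and 1 at 3-fold. In the same order, 35, 48, 13, 36, 36, 22, 36 and 36 mitosis genes were compared. Over all genes 9.75%, 12.5%, 10.4%, 8.76%, 10.1%, 11.5%, 20.1% and 5.88% were lower. With the mean, with the median and at 3-fold, the mitosis genes had a smaller share lower than all genes. At 1.5-fold 1 gene was higher in PDGFRa-only than in double-negative cells and 1 in double-positive than in PDGFRa-only cells. The medians against double-negative cells moved to -1.08 in PDGFRa-only and -1.21 in double-positive cells with the 67th percentile floor, to -0.74 and -1.19 with the mean over probe sets, and to -0.96 and -1.26 with the median. In double-positive over PDGFRa-only cells the median, -0.47, was -0.21 with the mean and -0.06 with the median over probe sets, beside 0.02 and 0 for all genes. Higher floors and averages over dim probe sets shrink ratios by construction, and the rule without suffixed probe sets compared 34 genes in place of 51. The main rule works the other way where probe sets lay above the floor in double-negative cells alone. The brightest of them then has the largest drop by construction. For Cenpp its log2 ratio was -2.50 in both PDGFRa(+) populations, against -1.33 and -0.18 by the others. A common median shifted the median of all genes by 0.12 in double-positive over PDGFRa-only cells. Bub1b changed sign, to 0.10, by 1 dim probe set. Counting only genes measured on both arrays, an alternative chosen after seeing the data, left 26, 24 and 7 lower in the 3 comparisons in the order above; likewise the 35 genes highest in double-negative cells became 18 among the 25 above the floor on all 3 arrays. No paired analysis was possible because each population had 1 array. Signals near the floor limit what can be said of Plk1, Kif20a, Kif20b, Cenph, Ncapg and the 3 genes under it.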

Other observations

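Genes with and without the CHR letters in their promoter window are given side by side, and the difference between them was not tested. For PDGFRa-only over double-negative cells, 24 of the 30 compared genes with TTTGAA were at least 2-fold lower, with a median log2 ratio of -1.57, and 8 of 12 without it were lower, with a median of -1.31. For double-positive over double-negative cells 24 of 30 with it and 9 of 12 without it were lower, with medians of -1.90 with it and -1.799 without it. These are descriptions of 1 array per population, and the absence of the letters from a 300-base window says nothing of the rest of the promoter. The Pttg1 window held none of the 3 motifs, and neither did those of Cenpp, Mad2l1, Melk, Ncaph, Nuf2 and Nusap1, of which Cenpp, Melk, Ncaph, Nuf2 and Nusap1 were lower in both PDGFRa(+) populations.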
